A study of Mus musculus with 5 samples.

Results

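The 10 genes described here are Dmrt1, Gata4 and Nr5a1, the 3 factors delivered to mouse fibroblasts, and 7 other transcription factors of the gonad, Gata6, Tcf21, Nr2f2, Emx2, Nr4a1, Wt1 and Nr0b1. They were chosen by symbol in the platform annotation, and each had exactly 1 probe, so 10 probes of 26423 and 10 genes of the 19084 measured are described. The study set fibroblasts carrying the 3 factors against fibroblasts and against Leydig cells, the androgen-producing cells of the testis, on single-colour arrays. The iLC group was 2 arrays of fibroblasts from embryos of 13.5 days post coitus, exposed to lentivirus for 12 hours to deliver Dmrt1, Gata4 and Nr5a1 and then kept in a medium with added IGF (50 ng/ml) and a lower dose of PDGFAA (10 ng/ml). The Leydig group was 2 arrays of Leydig cells isolated from testes of mice aged 56 days. The MEF group was 1 array of such embryonic fibroblasts after transduction with a mock vector. The sources used here do not give the culture time of iLC or say whether MEF cells received the same medium. Separate cultures or animals are not named for the arrays of a group. Arrays were taken as replicates by their titles, although the labels also give each array a short code of unstated meaning that differs within the iLC and the Leydig groups. The p-values therefore describe the spread between these arrays alone, and that spread may be technical.

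GATA4 and the nuclear receptor NR5A1, also called SF-1, bind the promoters of many genes of steroid hormone synthesis and are needed for the early gonad of both sexes, where WT1 and EMX2 act beside them. NR0B1, also called DAX1, represses transcription driven by NR5A1, and NR4A1, also called NUR77, is a nuclear receptor induced within hours by luteinizing hormone and cyclic AMP in Leydig cells. TCF21 and NR2F2, also called COUP-TFII, mark mesenchymal and stromal progenitors of the gonad, GATA6 is the close relative of GATA4, and DMRT1 keeps Sertoli cells and germ cells on the male path.

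Promoters are shown for the 4 members of the RefSeq promoter table whose levels differed in at least 1 comparison, since all 4 set Leydig cells apart from iLC. The windows are the 250 bases before the annotated start on GRCm38.p6, written along the gene's strand, and they lie at chr10:22820144-22820393 (minus strand) for Tcf21, chr7:70366747-70366996 (minus strand) for Nr2f2, chr19:59458440-59458689 (plus strand) for Emx2 and chr15:101266596-101266845 (plus strand) for Nr4a1. Capitals mark matches to a GATA word (the spelling AGATAA and its form AGATAG, the spelling TGATAA and its form TGATAG), to the NR5A word AAGGTCA or to the letters CGTCA, the core of the cyclic AMP response element, on either strand.
Tcf21: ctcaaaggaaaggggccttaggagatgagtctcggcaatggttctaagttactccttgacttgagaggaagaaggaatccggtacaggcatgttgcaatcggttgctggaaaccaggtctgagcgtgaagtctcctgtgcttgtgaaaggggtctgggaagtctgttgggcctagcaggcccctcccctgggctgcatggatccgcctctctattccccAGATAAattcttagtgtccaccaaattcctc
Nr2f2: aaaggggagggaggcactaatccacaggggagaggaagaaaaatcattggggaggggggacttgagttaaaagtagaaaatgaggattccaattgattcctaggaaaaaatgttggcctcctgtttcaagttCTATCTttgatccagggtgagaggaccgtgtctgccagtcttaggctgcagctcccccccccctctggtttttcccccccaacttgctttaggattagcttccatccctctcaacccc
Emx2: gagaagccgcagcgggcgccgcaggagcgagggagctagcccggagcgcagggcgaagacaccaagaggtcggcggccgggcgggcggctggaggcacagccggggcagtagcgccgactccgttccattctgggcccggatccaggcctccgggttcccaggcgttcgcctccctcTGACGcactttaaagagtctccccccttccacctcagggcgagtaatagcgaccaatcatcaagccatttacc
Nr4a1: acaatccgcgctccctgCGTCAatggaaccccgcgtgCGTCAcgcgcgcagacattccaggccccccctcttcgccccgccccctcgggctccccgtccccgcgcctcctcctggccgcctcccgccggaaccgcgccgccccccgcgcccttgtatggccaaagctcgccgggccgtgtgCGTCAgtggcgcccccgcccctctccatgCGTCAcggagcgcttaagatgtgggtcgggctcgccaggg

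The Tcf21 window held 1 GATA word, AGATAA, from 31 to 26 bases before the start, and the Nr2f2 window held 1, AGATAG on the opposite strand, from 118 to 113 bases before it. GATA words of this spelling stood in 27.1% of 27025 windows of the same length. The Nr4a1 window held 4 copies of CGTCA, at 233 to 229, 213 to 209, 69 to 65 and 40 to 36 bases before the start. Of all windows, 0.152% held 4 or more, a cut equal to the count in this window. The Nr4a1 window was 74.4% G and C, and the share among windows of like composition was not counted. CGTCA stood at least once in 17.9% of windows, among them that of Emx2, with 1 copy on the opposite strand at 73 to 69 bases. The window of Nr0b1 held none of these words, and AAGGTCA, which stood in 4.05% of all windows, was in none of the 5 windows read. Only that spelling of the NR5A word was searched. The Nr0b1 window does hold its last letters, AGGTCA, with a G before them, and other spellings were not counted. The words do not overlap one another in these windows, and a match is only a match of letters.

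Median probe intensities were 1157 and 1215 on the iLC arrays, 1111 and 1230 on the Leydig arrays and 1144 on the MEF array. The low ends differed, with 20th percentiles of 180 and 221 on the iLC arrays, 214 and 218 on the Leydig arrays and 263 on the MEF array. Arrays were also read against marker lists of cell types. The 9 measured of 12 adult Leydig markers summed to 197825 and 229483 on the iLC arrays, 522610 and 797283 on the Leydig arrays and 43218 on the MEF array, while Insl3, Lhcgr and Hsd3b6 had no named probe. Most of the MEF sum was Ephx1, at 35472, which read 255994 and 212474 on the Leydig arrays. Ptgds read 2214 and 235608 on Leydig replicates 1 and 2. Star read 56878 and 73892 on the iLC arrays and less, 1368 and 19703, on the Leydig arrays, and was not called between them. In iLC relative to Leydig cells, limma called 0 of the 9 higher and 3 lower. Limma called 3 of the 9 higher on the Leydig arrays than on the MEF array. Cyp11a1, the enzyme that starts steroid synthesis, read 603 and 907 on the iLC arrays, 510 and 451 on the Leydig arrays and 562 on the MEF array. Its probe thus set no group apart, and whether it reports the level of the gene was not tested. Some germ cell and Sertoli cell markers also read higher on the Leydig arrays than on the MEF array. The 18 measured of 19 germ cell markers summed to 13733 and 13819 on the iLC arrays, 97029 and 1397200 on the Leydig arrays and 12185 on the MEF array, so Leydig replicate 2 stood far above replicate 1. The 16 Sertoli markers, Wt1 and Dmrt1 among them, summed to 82137 and 113846 on the iLC arrays, 434063 and 542262 on the Leydig arrays and 41167 on the MEF array. Most of the Leydig sums was the single gene Clu, at 332720 and 369002. Limma called 4 of the 16 higher and 0 lower in Leydig cells than in MEF. The 15 fibroblast markers summed to 1334610 and 1116180 on the iLC arrays, 857368 and 593357 on the Leydig arrays and 1807400 on the MEF array. Limma called 7 of the 15 lower and 1, Pdgfra, higher in Leydig cells than in MEF. A large part of the Leydig sums was Dcn, not called, at 317284 and 244914 on the Leydig arrays and 88499 on the MEF array. The 8 measured smooth muscle markers summed to 579539 and 538302 on the iLC arrays, 119505 and 127090 on the Leydig arrays and 715344 on the MEF array, and limma called 5 of them lower in Leydig cells than in MEF. The 17 measured macrophage and leukocyte markers summed to 68868 and 139485 on the iLC arrays, 52870 and 47291 on the Leydig arrays and 268409 on the MEF array, with 8 called lower in Leydig cells than in MEF. The part of these cell types in the results below was not tested.

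**Figure D1:**
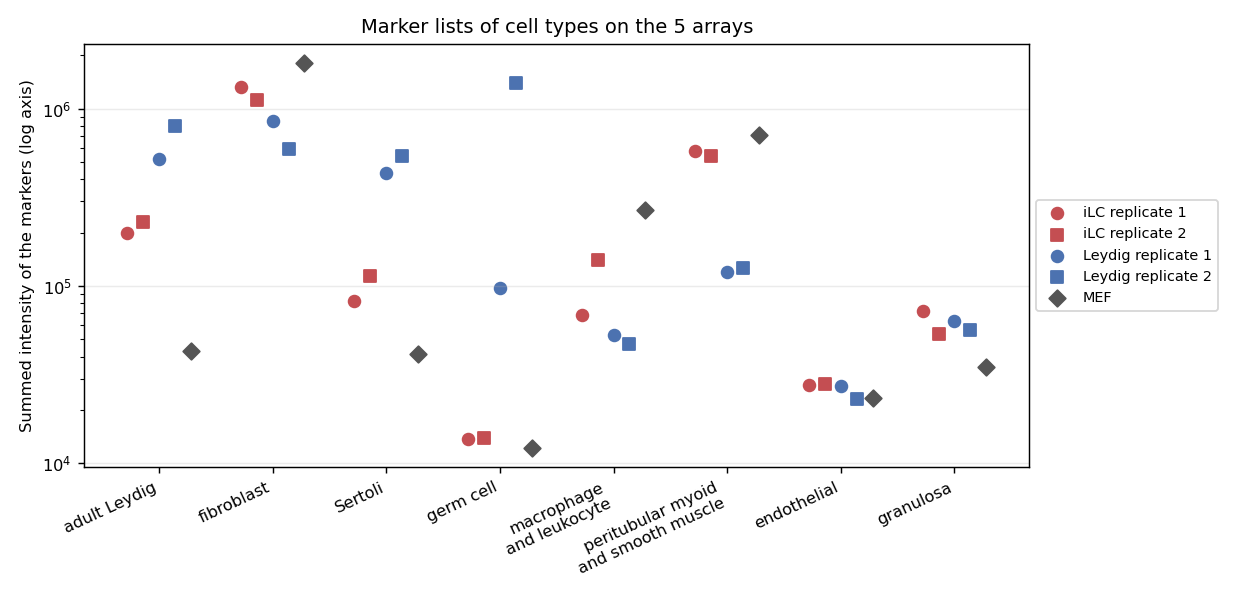
Summed probe intensity (log axis) of each marker list on the 2 iLC arrays (red), the 2 Leydig arrays (blue) and the MEF array (grey); circles are replicate 1, squares replicate 2 and the diamond the lone MEF array. The germ cell sum is 97029 and 1397200 on the Leydig arrays, against 13733 and 13819 on the iLC arrays and 12185 on the MEF array.

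Between iLC and Leydig cells, 7 of the 10 transcription factors differed at a limma adjusted p under 0.05, against 11.4% of all genes tested. Emx2, Gata6 and Nr4a1 were higher in iLC, where 5.72% of all genes were called in that direction, and Tcf21, Nr5a1, Gata4 and Nr2f2 were lower in iLC, where 5.65% were. Dmrt1, Wt1 and Nr0b1 were not called. Between iLC and MEF, 0 of the 10 were called, against 0.561% of all genes; at an unadjusted limma p under 0.05 there were 2 of the 10 and 3005 of the 19084 genes. Between Leydig cells and MEF, 5 of the 10 were called, against 7.3% of all genes: Nr5a1, Tcf21, Gata4 and Nr2f2 were higher in Leydig cells (3.34% of all genes in that direction) and Emx2 was lower (3.97%). The median size of the log2 difference over the 10 genes was 2.17 between iLC and Leydig cells, 0.79 between iLC and MEF and 1.70 between Leydig cells and MEF, beside 0.49, 0.47 and 0.50 over all genes. The comparisons share arrays, the 2 with MEF resting on the same lone array, so their values stand side by side and are not independent of each other. In these bulk samples fewer cells of a type and less RNA per cell cannot be told apart.

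**Figure D2:**
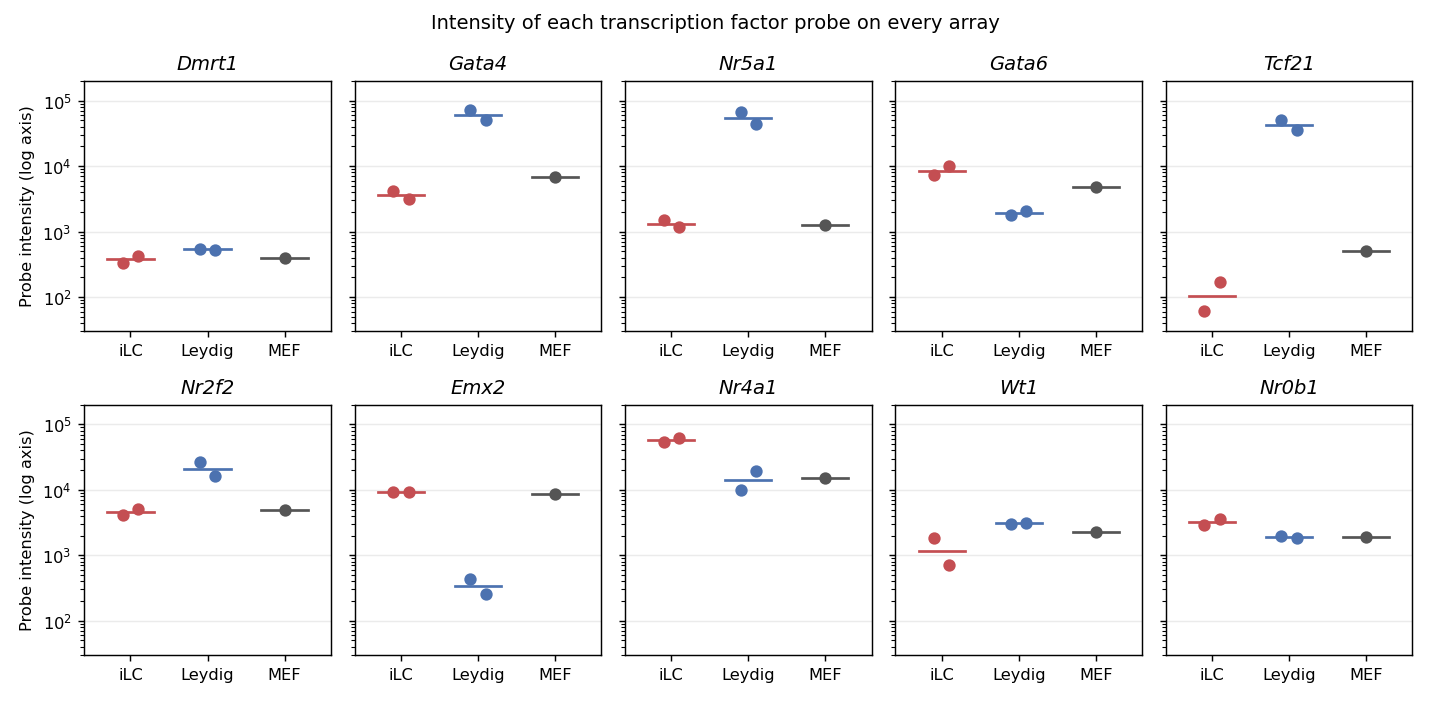
Probe intensity (log axis) of each of the 10 transcription factors on every array, with 1 point per array and a line at the geometric mean of the group, for iLC (red, 2 arrays), Leydig cells (blue, 2 arrays) and MEF (grey, 1 array). Tcf21 reads 61.9 and 168 on the iLC arrays, against 49873 and 35286 on the Leydig arrays and 506 on the MEF array; Dmrt1 stays between 333 and 549 on all 5.

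Of the delivered factors, Nr5a1 and Gata4 read far lower in iLC than in Leydig cells. Nr5a1 read 1509 and 1158 on the iLC arrays, 68030 and 44721 on the Leydig arrays and 1265 on the MEF array. The MEF value lay between the iLC values, and both Leydig values lay above all others. The iLC level was lower than the Leydig level by a log2 difference of -5.37 ± 0.36 (SE, 2 arrays each), a 41.2-fold difference (limma adjusted p = 0.00109). The Leydig level exceeded that of MEF by 5.43 ± 0.44 on the same scale, or 43.1-fold (limma adjusted p = 0.00338). In iLC against MEF the log2 difference was 0.06 ± 0.44, with a 95% interval of -1.01 to 1.13 (limma adjusted p = 0.964). The order of the groups was thus Leydig cells above both others, with iLC and MEF not separated by the test. Both calls held without each iLC and Leydig array in turn, with adjusted p no higher than 0.0299 against iLC and 0.0482 against MEF.

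Gata4, which drives gonadal and cardiac genes, read 4127 and 3150 on the iLC arrays, 71888 and 50891 on the Leydig arrays and 6773 on the MEF array. The groups did not overlap, with Leydig cells highest and iLC lowest. The log2 difference was -4.06 ± 0.35 between iLC and Leydig cells, a level 16.7-fold lower in iLC (limma adjusted p = 0.00188), and 3.16 ± 0.43 between Leydig cells and MEF, or 8.91-fold higher in Leydig cells (limma adjusted p = 0.0111). The call against iLC held without each array (highest adjusted p 0.0319). The call against MEF was lost without Leydig replicate 1 (adjusted p = 0.0569) and without Leydig replicate 2 (0.0641). Both iLC values lay below the MEF value, but the log2 difference of -0.91 ± 0.43, with a 95% interval of -1.94 to 0.13, did not pass the test (limma adjusted p = 0.368).

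Dmrt1 read 333 and 427 on the iLC arrays, 549 and 519 on the Leydig arrays and 397 on the MEF array. The Leydig values lay above the others by less than the test could separate, and the MEF value lay between those of iLC. The log2 difference was -0.48 ± 0.31 between iLC and Leydig cells (limma adjusted p = 0.391), 0.41 ± 0.38 between Leydig cells and MEF (0.642) and -0.07 ± 0.38 between iLC and MEF (0.954), with a 95% interval of -1.001 to 0.86 for the last. The sign of that last difference turned with the processing, to 0.079 after quantile normalization and 0.24 with the arrays' low ends aligned. For none of the 3 delivered factors did the probe read higher on both iLC arrays than on the MEF array. The sources used here do not say where these probes lie in their transcripts or whether the delivered sequences include that stretch. The intensities therefore do not check the iLC labels.

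Tcf21, a basic helix-loop-helix factor of mesenchymal progenitors, read near the dim end on the iLC arrays and brightly on the Leydig arrays. It read 61.9 and 168 on the iLC arrays, 49873 and 35286 on the Leydig arrays and 506 on the MEF array. The groups did not overlap, with Leydig cells highest and iLC lowest, and both iLC values lay under the 20th percentile of their array. The iLC level was lower than that of Leydig cells by a log2 difference of -8.45 ± 0.48 (limma adjusted p = 0.001), and the call held without each array (highest adjusted p 0.0299). Its size rested on the dim iLC readings, which have no stated distance from background: it was -7.83 without iLC replicate 1, -9.07 without iLC replicate 2 and -7.61 with readings under each array's 20th percentile set to that percentile. The Leydig level exceeded that of MEF by 6.33 ± 0.59 on the log2 scale, or 80.4-fold (limma adjusted p = 0.00435), a call that was lost without Leydig replicate 2 (0.0546). The log2 difference between iLC and MEF was -2.12 ± 0.59, with a 95% interval of -3.56 to -0.69 and an unadjusted p of 0.0108, and it was not called (limma adjusted p = 0.176). Under the same 3 changes that value was -1.50, -2.74 and -1.28.

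Nr2f2, a nuclear receptor of stromal and interstitial cells, read 4091 and 5181 on the iLC arrays, 26963 and 16414 on the Leydig arrays and 4890 on the MEF array. The MEF value lay between the iLC values and below both Leydig values. The iLC level was 4.56-fold lower than that of Leydig cells, a log2 difference of -2.19 ± 0.37 (limma adjusted p = 0.0161), and the Leydig level was 4.29-fold above that of MEF, at 2.10 ± 0.46 (0.0471). Both calls were lost when any 1 iLC or Leydig array was left out. Against iLC the adjusted p was 0.092 and 0.0608 without iLC replicates 1 and 2 and 0.0758 and 0.0543 without Leydig replicates 1 and 2, and against MEF it was 0.0841, 0.0841, 0.129 and 0.0908 in the same order. The call between Leydig cells and MEF was lost in 7 of 16 alternatives. In iLC against MEF the log2 difference was -0.09 ± 0.46, with a 95% interval of -1.19 to 1.02 (limma adjusted p = 0.95).

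The 4 factors that were higher in Leydig cells than in iLC and MEF stood beside higher readings of some Sertoli and germ cell markers on the same arrays. Sertoli cells too are known to express Gata4 and Nr5a1. Limma called, in Leydig cells relative to MEF, 4 of the 16 Sertoli markers and 4 of the 18 germ cell markers higher. The called genes of the germ cell list were Dazl, Zbtb16, Ldhc and Kit. Whether other cells of these samples express them was not tested. Dazl and Kit read higher on Leydig replicate 1, unlike the germ cell sum, and Zbtb16 and Ldhc on replicate 2. The Sertoli markers called were Clu, at 332720 and 369002 on the Leydig arrays and 23088 on the MEF array, Aard, at 50609 and 147767 against 1314, Cldn11, at 4818 and 2505 against 513, and Defb36, at 1778 and 1916 against 277. The other Sertoli markers were not called, among them Sox9, at 450 and 1120 on the Leydig arrays and 1306 on the MEF array. Gata4, Nr5a1, Tcf21 and Nr2f2 read 1.41, 1.52, 1.41 and 1.64 times as high on Leydig replicate 1 as on replicate 2. In iLC relative to Leydig cells, limma called 4 of the 16 Sertoli markers and 9 of the 18 germ cell markers lower, and 0 of either higher. The 9 were Dazl, Zbtb16, Ldhc, Kit, Prm1, Tnp1, Tnp2, Crisp2 and Akap4. Prm1, Tnp1, Tnp2, Crisp2 and Akap4 all read higher on Leydig replicate 2 than on replicate 1. The part of Sertoli cells and of germ cells in the differences of the 4 factors was not tested.

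Emx2, a homeobox gene needed for the urogenital tract, went the opposite way. It read 9386 and 9238 on the iLC arrays, 428 and 260 on the Leydig arrays and 8688 on the MEF array. Both iLC values and the MEF value lay far above the Leydig values, which were themselves above the 20th percentile of their arrays. The iLC level was 26.7-fold higher than that of Leydig cells, a log2 difference of 4.74 ± 0.36 (limma adjusted p = 0.00148), and the Leydig level was lower than that of MEF by a log2 difference of -4.64 ± 0.44 (limma adjusted p = 0.00435). Both calls held without each iLC and Leydig array in turn, with adjusted p up to 0.0299 and 0.0484. The iLC and MEF levels differed by 0.10 ± 0.44 on the log2 scale, with a 95% interval of -0.96 to 1.16 (limma adjusted p = 0.938).

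Gata6 read 7319 and 9918 on the iLC arrays, 1789 and 2039 on the Leydig arrays and 4730 on the MEF array. The groups did not overlap, with iLC highest and Leydig cells lowest, the reverse of the order for Gata4. The iLC level was 4.43-fold higher than that of Leydig cells, a log2 difference of 2.15 ± 0.33 (limma adjusted p = 0.0109). The call held without iLC replicate 1 (adjusted p = 0.0418) and was lost without iLC replicate 2 (0.0652), Leydig replicate 1 (0.0662) and Leydig replicate 2 (0.0744). The neighbours in that order were not separated: the log2 difference was 0.85 ± 0.40 between iLC and MEF, with a 95% interval of -0.12 to 1.82 (limma adjusted p = 0.371), and -1.30 ± 0.40 between Leydig cells and MEF (0.128).

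Nr4a1 read 54015 and 61722 on the iLC arrays, 9894 and 19687 on the Leydig arrays and 15191 on the MEF array. Both iLC values were above the other 3, and the MEF value lay between the Leydig values, which differed 1.99-fold from each other. The iLC level was 4.13-fold higher than that of Leydig cells, a log2 difference of 2.05 ± 0.41 (limma adjusted p = 0.0281). That call was lost without any 1 of the 4 arrays, with adjusted p of 0.106 and 0.12 without iLC replicates 1 and 2 and 0.0912 and 0.05003 without Leydig replicates 1 and 2, and with the low ends aligned (0.055). Against MEF the log2 difference of iLC was 1.93 ± 0.51, with a 95% interval of 0.70 to 3.15 and an unadjusted p of 0.00834, and it was not called (limma adjusted p = 0.159). For Leydig cells against MEF it was -0.12 ± 0.51 (0.942).

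Wt1, a zinc finger factor of the early gonad and of Sertoli cells, and Nr0b1 were called in no comparison. Wt1 read 1854 and 722 on the iLC arrays, 3017 and 3128 on the Leydig arrays and 2285 on the MEF array. The iLC arrays differed 2.57-fold from each other, and the log2 difference of -1.39 ± 0.48 between iLC and Leydig cells (limma adjusted p = 0.128) was -2.06 without iLC replicate 1 and -0.72 without iLC replicate 2. Wt1 gave -0.97 ± 0.59 between iLC and MEF (0.493) and 0.42 ± 0.59 between Leydig cells and MEF (0.778). Nr0b1 read 2917 and 3546 on the iLC arrays, 1992 and 1823 on the Leydig arrays and 1917 on the MEF array. Both iLC values lay above the other 3, with the MEF value between the Leydig values, yet the log2 differences of 0.75 ± 0.31 against Leydig cells (limma adjusted p = 0.187) and 0.74 ± 0.38 against MEF (0.409) did not pass the test. Leydig cells and MEF differed by -0.01 ± 0.38 (0.996).

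**Figure D3:**
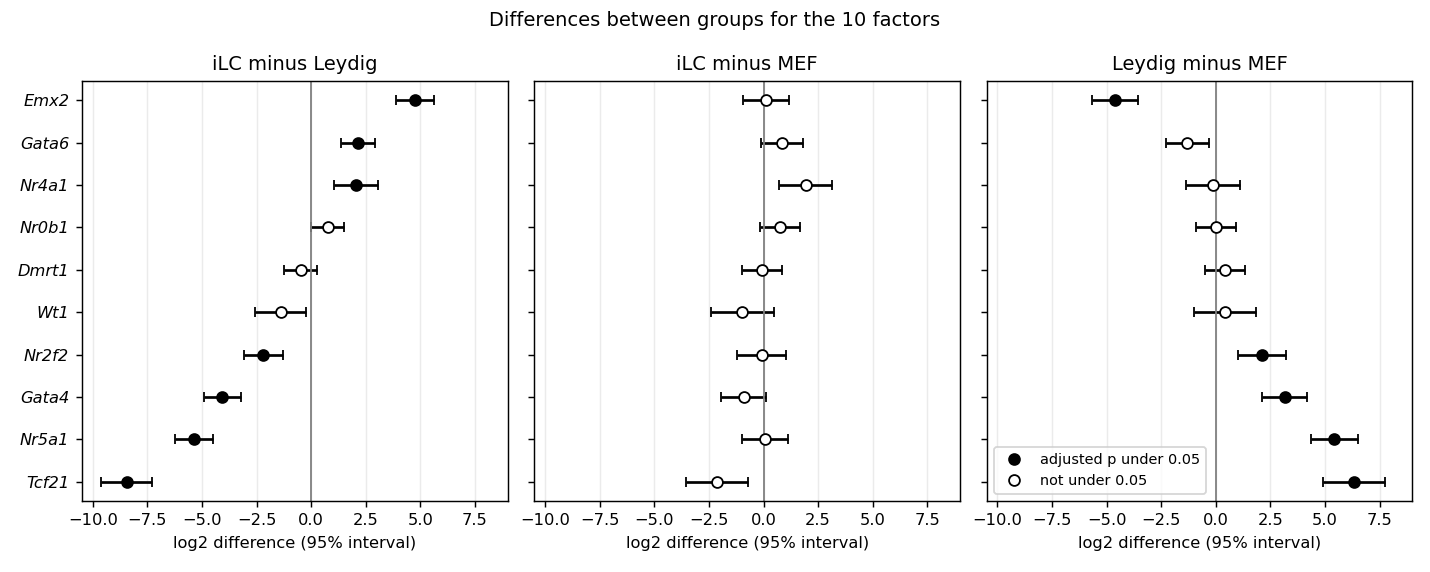
Log2 differences of the 10 transcription factors with 95% intervals from the limma fit, in iLC minus Leydig cells, iLC minus MEF and Leydig cells minus MEF; filled points have an adjusted p under 0.05. iLC minus Leydig cells runs from 4.74 for Emx2 to -8.45 for Tcf21, and no point is filled in iLC minus MEF, where the values run from 1.93 for Nr4a1 to -2.12 for Tcf21.

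The related families were read from lists. Of 6 other GATA factors and their FOG cofactors, limma called 1 higher and 0 lower between iLC and Leydig cells and 0 in the other comparisons. That gene, Gata2, read 3555 and 4599 on the iLC arrays, 818 and 775 on the Leydig arrays and 1150 on the MEF array, a log2 difference of 2.32 ± 0.32 between iLC and Leydig cells (limma adjusted p = 0.00748). It was higher in iLC, as was Gata6, and its call was lost without iLC replicate 2 (0.0506) or Leydig replicate 2 (0.0689). Of 7 other DM domain genes, the family of Dmrt1, 1 was called higher in iLC than in Leydig cells, Dmrt2, and 2 lower, Dmrtb1 and Dmrtc2. Dmrtb1, a regulator of germ cells, read 498 and 448 on the iLC arrays, 3520 and 6465 on the Leydig arrays and 447 on the MEF array. It was also the 1 DM domain gene called between Leydig cells and MEF, at 3.37 ± 0.48 on the log2 scale (limma adjusted p = 0.013). That call was lost without Leydig replicate 2 (0.0677). The call of Dmrt2 was lost without any 1 array (0.0979 to 0.12).

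Of 6 nuclear receptor relatives, 1 was called higher and 1 lower between iLC and Leydig cells, 0 between iLC and MEF, and 1 higher between Leydig cells and MEF. Nr4a2, the relative of Nr4a1, read 8808 and 9614 on the iLC arrays, 1137 and 2323 on the Leydig arrays and 2106 on the MEF array, a log2 difference of 2.49 ± 0.42 between iLC and Leydig cells (limma adjusted p = 0.0154). It showed the same order of arrays as Nr4a1, with both iLC values above the other 3, and its call held without Leydig replicate 2 (0.0378) and not without the other arrays (0.0566 to 0.078). Nr0b2, also called SHP and the relative of Nr0b1, read 430 and 506 on the iLC arrays, 3147 and 5716 on the Leydig arrays and 458 on the MEF array. It was lower in iLC than in Leydig cells by -3.14 ± 0.39 on the log2 scale (limma adjusted p = 0.00559) and higher in Leydig cells than in MEF by 3.17 ± 0.48 (0.0155), the second call being lost without Leydig replicate 2 (0.0737).

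Since Nr4a1 belongs to the genes that respond early to stimulation, 16 immediate early genes were read beside it. Between iLC and Leydig cells 1 was higher and 1 lower, with a list median of 0.58 beside -0.03 over all genes, and 0 were called in the other comparisons. Atf3, a stress-induced factor, read 3107 and 6176 on the iLC arrays, 503 and 637 on the Leydig arrays and 1068 on the MEF array, a log2 difference of 2.92 ± 0.42 between iLC and Leydig cells (limma adjusted p = 0.00918). Egr1, which acts at the luteinizing hormone subunit gene in the pituitary, read 32735 and 30060 on the iLC arrays, 141001 and 119332 on the Leydig arrays and 78673 on the MEF array, a log2 difference of -2.05 ± 0.31 (limma adjusted p = 0.0104). The call of Atf3 was lost without Leydig replicate 1 (0.0723) or 2 (0.0768), and that of Egr1 without any 1 array (0.0581 to 0.065).

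Among the regulators of gonadal fate, the 10 measured of 12 other factors of the bipotential gonad gave no call in any comparison. Of 10 Sertoli and testis determination regulators, Nr0b1 among them, 1 was called: Gadd45g, a signalling protein upstream of Sry, read 51037 and 65976 on the iLC arrays, 7811 and 16525 on the Leydig arrays and 89859 on the MEF array. It was higher in iLC than in Leydig cells by 2.35 ± 0.44 on the log2 scale (limma adjusted p = 0.0221) and lower in Leydig cells than in MEF by -2.98 ± 0.54 (0.0262). The first call was kept without Leydig replicate 2 (0.0463) and lost without each other array (0.0791 to 0.106), and the second was lost without any 1 array (0.0544 to 0.0713). Of 10 ovarian and granulosa regulators, limma called 4 higher and 1 lower in iLC relative to Leydig cells, with a list median of 1.36 beside -0.03 over all genes. Fst, which encodes the activin antagonist follistatin, read 17504 and 12430 on the iLC arrays, 749 and 604 on the Leydig arrays and 10836 on the MEF array, a log2 difference of 4.42 ± 0.34 between iLC and Leydig cells (limma adjusted p = 0.00152). Foxl2, a forkhead factor of granulosa cells, read 2809 and 2227 on the iLC arrays, 136 and 413 on the Leydig arrays and 981 on the MEF array, a log2 difference of 3.30 ± 0.53 (limma adjusted p = 0.013). The other calls were the homeobox genes Irx5 (3.18) and Irx3 (2.20), and, named after its value was seen, Rspo1, a Wnt agonist (-1.99). The calls of Fst and Irx5 held without each array, whereas that of Foxl2, whose difference was 2.55 and 4.05 without Leydig replicates 1 and 2, was lost without iLC replicate 1 (0.0786) or 2 (0.0583) and that of Irx3 without iLC replicate 2 (0.0736), Leydig replicate 1 (0.0524) or Leydig replicate 2 (0.0995). None of the 10 was called between iLC and MEF. In Leydig cells relative to MEF 1 was higher, Rspo1 (2.13), and 2 were lower, Fst (-3.98) and Irx5 (-2.73). Rspo1, at 2.99 with the low ends aligned, lost that call without any 1 array (0.0694 to 0.12), Fst without Leydig replicate 2 (0.0581) and Irx5 without Leydig replicate 1 (0.0626) or 2 (0.0964).

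The list of Leydig and stromal progenitor regulators, with 11 of 13 genes measured, holds Tcf21, Nr2f2 and Wt1. Between iLC and Leydig cells 1 was higher and 4 lower, and between Leydig cells and MEF 3 were higher and 1 lower. Besides Tcf21 and Nr2f2, the calls between iLC and Leydig cells were Nes, Osr1 and Pdgfra. Nes, which encodes the intermediate filament nestin, read 21304 and 20852 on the iLC arrays, 304 and 336 on the Leydig arrays and 32227 on the MEF array. It was higher in iLC than in Leydig cells by 5.97 ± 0.30 on the log2 scale (limma adjusted p = 0.000874) and lower in Leydig cells than in MEF by -6.59 ± 0.37 (0.00132), and both calls held without each array. Pdgfra, the receptor of the PDGFAA in the iLC medium, read 28814 and 20535 on the iLC arrays, 180686 and 92654 on the Leydig arrays and 15980 on the MEF array. It was lower in iLC than in Leydig cells by -2.41 ± 0.43 (limma adjusted p = 0.0184) and higher in Leydig cells than in MEF by 3.02 ± 0.52 (0.0233). The first of these was lost without any 1 array (0.0503 to 0.0945) and the second without Leydig replicate 1 (0.0749) or 2 (0.066). Osr1, a zinc finger factor of the intermediate mesoderm, differed by -2.50 ± 0.43 between iLC and Leydig cells (limma adjusted p = 0.0169), a call kept without Leydig replicate 2 alone (0.0414).

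Genes listed as targets of NR5A1 or GATA4 were read in the same way, 26 of 32 having a named probe. Whether either factor acted on them in these cells was not tested. In iLC relative to MEF, 3 of the 26 were called higher and 0 lower. Over all genes 0.278% were called higher and 0.283% lower. The list median was 1.29 beside -0.11 over all genes. The list was chosen with earlier results of these data known, so these values are no test of the delivered factors. Hsd3b1, an enzyme of steroid synthesis, read 27160 and 34513 on the iLC arrays, 218338 and 95740 on the Leydig arrays and 830 on the MEF array, a log2 difference of 5.18 ± 0.56 between iLC and MEF (limma adjusted p = 0.033). Mrap, which helps the ACTH receptor reach the cell surface, read 12133 and 10236 on the iLC arrays, 94209 and 160866 on the Leydig arrays and 383 on the MEF array, a difference of 4.80 ± 0.46 (0.0281). Fdx1, the electron donor of mitochondrial steroid enzymes, read 147489 and 139550 on the iLC arrays, 136753 and 212818 on the Leydig arrays and 12392 on the MEF array, a difference of 3.53 ± 0.43 (0.0388). The groups of each of these 3 genes lay apart from the MEF array by far more than the iLC arrays lay from each other. None of the 3 kept its call without any 1 array, with adjusted p between 0.124 and 0.16, and with any 1 array left out no gene of the 19084 was called between iLC and MEF.

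Between iLC and Leydig cells 5 of the 26 listed target genes were higher and 4 lower. Cyp17a1, the enzyme that leads to androgens, read 1382 and 2351 on the iLC arrays, 40614 and 197728 on the Leydig arrays and 2344 on the MEF array, a log2 difference of -5.62 ± 0.74 between iLC and Leydig cells (limma adjusted p = 0.00689). Akr1c18, which inactivates progesterone, was higher in iLC by 4.19 ± 0.44 (limma adjusted p = 0.00316). It read 13319 and 15038 on the iLC arrays, 508 and 1127 on the Leydig arrays and 5033 on the MEF array, and was not called between iLC and MEF. Inhba, the activin subunit gene, was higher by 4.11 ± 0.32 (0.00155) and Cyp11b1, the adrenal enzyme of corticosteroid synthesis, by 4.05 ± 0.74 (0.02). Inhba read 22995 and 21612 on the iLC arrays, 1112 and 1471 on the Leydig arrays and 18216 on the MEF array. The difference of Cyp17a1 was -6.76 without Leydig replicate 1 and -4.48 without Leydig replicate 2, and that of Cyp11b1 was 2.87 and 5.23 without the same arrays. The calls of Cyp17a1, Akr1c18 and Inhba held without each array, and that of Cyp11b1 was lost without iLC replicate 1 (0.0983) or 2 (0.0849). In Leydig cells relative to MEF 6 were higher and 2 lower, led by Mrap (8.27), Hsd3b1 (7.42), Amhr2, the receptor of anti-Müllerian hormone (5.33), and Cyp17a1 (5.25). Mrap and Hsd3b1 kept these calls without each array, Amhr2 lost its call without Leydig replicate 1 (0.0792) or 2 (0.094), and Cyp17a1 without Leydig replicate 2 (0.0664). Without Leydig replicates 1 and 2 in turn, these differences were 6.82 and 8.01 for Hsd3b1 and 6.39 and 4.11 for Cyp17a1.

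**Figure D4:**
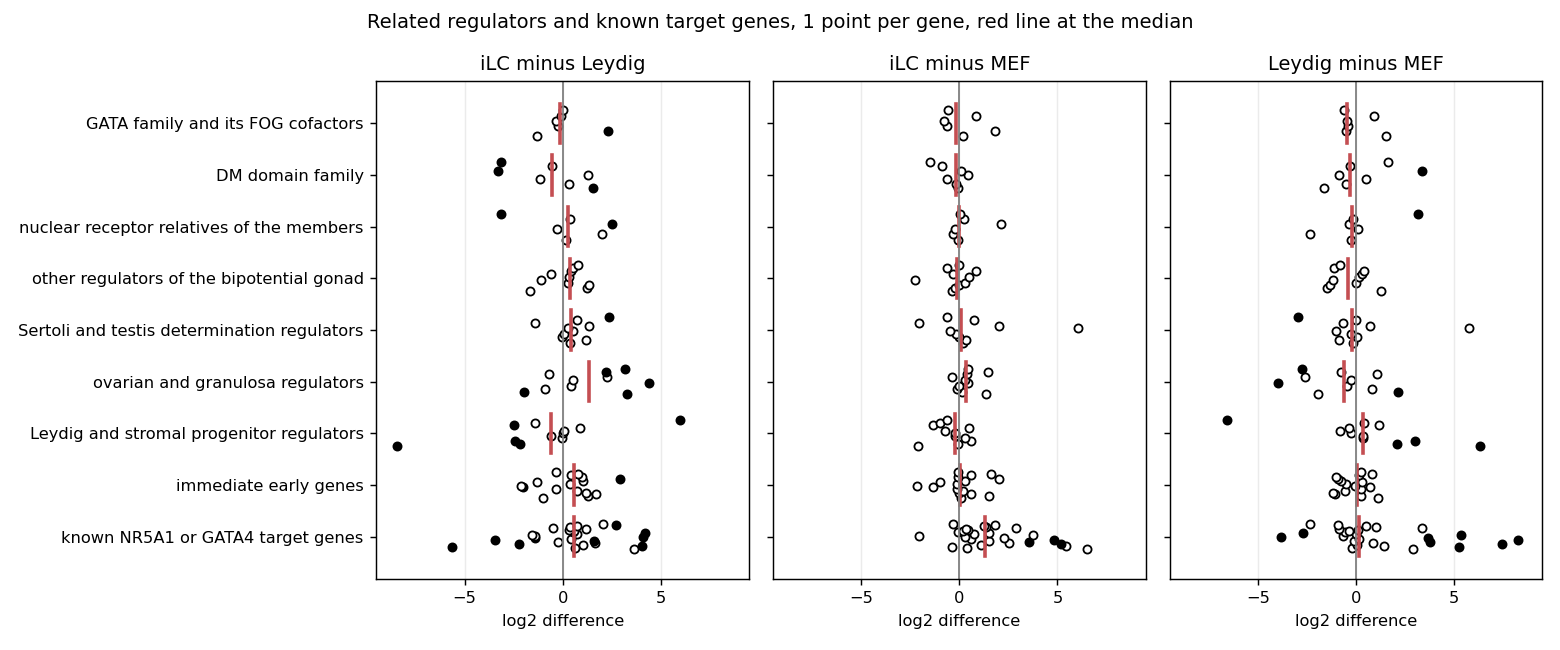
Log2 differences of the related regulators and listed target genes, 1 point per gene. The comparisons are iLC minus Leydig cells, iLC minus MEF and Leydig cells minus MEF. Filled points have a limma adjusted p under 0.05 and the red line is the list median. In iLC minus MEF only the target list has filled points, 3 of 26, and its median is 1.29. The lists were chosen with earlier results of these data known.

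Genes with the pattern most like that of each called factor were ranked by the root mean square difference of log2 values over the 5 arrays, each gene centred on its own mean, among 17061 genes with predicted genes, clones and olfactory genes left out. Nr2f2 had the closest neighbours, Sobp at 0.04, Rtl4 at 0.07 and Dnajc15 at 0.09 log2 units. Gata6 was nearest to Dpysl4 (0.11), Tbc1d2 (0.11) and Epn3 (0.14), and Gata4 to Grm7 (0.13), Dazl (0.16) and Gstt1 (0.17), of which Dazl stands on the germ cell list. Nr4a1 was nearest to Fam155a (0.14), Nupr1 (0.18) and its own relative Nr4a2 (0.20). Emx2 was nearest to P4ha3 (0.21) and to the homeobox gene Hoxb8 (0.26) and the basic helix-loop-helix gene Hand2 (0.26). Nr5a1 was nearest to C2 (0.26), Fxyd1 (0.28) and Gbp3 (0.28). Few genes lay near Tcf21 on this unscaled measure, the nearest being Ldhc at 0.46, Kit at 0.56 and Serpina5 at 0.78. Ldhc and Kit both stand on the germ cell list. Ldhc read 8223 and 15116 on Leydig replicates 1 and 2. Kit read 47570 and 18913 on them, the reverse of the order of the germ cell sum. Whether germ cells gave these readings was not tested. With 5 arrays in 3 groups, many genes share a pattern by their group levels: 607 genes lay within 0.5 log2 units of Gata6 and 376 of Nr2f2, against 79 of Gata4, 31 of Emx2, 19 of Nr5a1 and 1 of Tcf21. Values were centred and not scaled, so these counts also depend on the size of a gene's differences.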

How the data were processed

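Per the labels' protocols, total RNA of each of 5 samples was reverse-transcribed, amplified and coupled to Cy5, and each sample was read on 1 array. The authors deposited linear probe intensities, 1 column per array; the sources used here do not give their background correction, normalization or software, nor the position of each probe in its transcript. Detection flags were not used, and precision is limited by the number of arrays. Of 26423 probes, 21876 had 1 gene symbol in the platform annotation, 4547 had no symbol and 0 had several; for 21825 named probes the Entrez identifier was in a RefSeq gene table of assembly GRCm38.p6, and 0 of those carried another symbol there. Of 19084 genes, 2424 had several probes, and the probe with the highest mean log2 value was kept. 0 columns belonged to no sample.

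Intensities below 0 were set to 0 and 16 was added before log2. Differences and folds are therefore on the log2(intensity + 16) scale, which shrinks those of dim probes. limma 3.58.1 in R 4.3.3 (lmFit, eBayes) was fitted to all 5 arrays with 1 mean per group, with 2 residual and 4.21 prior degrees of freedom; the MEF array, being alone, took its variance from the iLC and Leydig pairs, whose root mean square standard deviations were 0.459 and 0.548 on the log2 scale. Tests were two-sided, and p-values were adjusted by Benjamini and Hochberg over all 19084 genes of a comparison; called means an adjusted p under 0.05. The 95% intervals of differences come from the same fit and are not adjusted for the number of genes. The fitting script was tested on simulated data.

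The 10 genes, the lists of related genes and of cell type markers, and the motifs were chosen with earlier results of these data known. Every one of the 10 genes is named; of each list of related genes, up to 4 called genes with the largest differences are named. Rspo1 between iLC and Leydig cells was chosen after its value was seen. So were the cell type markers given with values (Cyp11a1, Ephx1, Ptgds, Star, Clu, Aard, Cldn11, Defb36, Sox9, Dcn, Kit and Ldhc). Gene names came from the platform annotation, and promoter windows from a RefSeq table on GRCm38.p6, which held 5 of the 10 genes; motif matches were counted on both strands. The 16 alternatives changed the added constant, normalization, treatment of dim genes and of the arrays' low ends, probe choice, arrays fitted, variance prior and replicate block, or left out 1 array. The replicate numbers in the titles were not taken as pairs: deviations of same-numbered arrays correlated at 0.06 over 2 pairs, and the labels name no shared batch.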

Additional observations from a re-analysis of the deposited data

How the results depend on the processing

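The 16 alternatives left the number of the 10 factors called between iLC and Leydig cells at 6 to 8 of 10 where all arrays were kept (7 as reported), at 0 between iLC and MEF except with the replicate block, and at 4 to 5 between Leydig cells and MEF (5 as reported). Leaving out each array in turn gave 4 to 5, 0, and 2 to 4, and takes 1 of 2 residual degrees of freedom. The replicate numbers were not taken to pair the arrays; with the replicate block, 8, 1 and 5 factors were called, Wt1 being added between iLC and Leydig cells and Tcf21, lower in iLC, between iLC and MEF. With the replicate block, 3440 genes in all were called between iLC and Leydig cells, against 2170, and 1450 between iLC and MEF, against 107.

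Differences of 5 single genes changed sign, in 10 combinations of gene and setting, each in a comparison where the gene was not called. Between iLC and MEF, Dmrt1 (-0.07 as reported) was 0.079 after quantile normalization, 0.24 with low ends aligned and -0.24 to 0.10 with 1 array left out; Nr5a1 (0.06) was -0.0018 with arrays centred on their medians and -0.13 to 0.25 with 1 array left out; and Nr2f2 (-0.09) was -0.26 to 0.083 with 1 array left out and 0.0075 with the replicate block. Between Leydig cells and MEF, Nr0b1 (-0.01) was 0.033 with low ends aligned and -0.072 to 0.055 with 1 array left out, and Nr4a1 (-0.12) was -0.62 to 0.37 with 1 array left out. The cause was not tested.

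The count over all genes moved by more than 1.5 times in several settings. Between iLC and Leydig cells it was 696 to 1271 with 1 array left out. Between iLC and MEF it was 9 with 1 added in place of 16, 290 with 64 added, 369 after quantile normalization, 380 with arrays centred on their medians, 225 without the dimmest 20 percent of genes, 326 with a floor at the 20th percentile, 6 with low ends aligned, 354 with a variance trend and robust prior, and 0 with 1 array left out or only the arrays compared. Between Leydig cells and MEF, where the reported count was 1394, it was 691 and 153 without Leydig replicates 1 and 2. The median of all genes between iLC and MEF was -0.11 as reported, 0.05 after quantile normalization and 0.12 with low ends aligned. Detection flags were not used here, so dim readings such as those of Tcf21 on the iLC arrays have no stated distance from background.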
